A study of Mus musculus with 10 samples.

Results

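Collagen processing genes were examined in inflamed mouse ear skin. The group comprised the prolyl 4-hydroxylase alpha subunits P4ha1, P4ha2 and P4ha3, the lysyl hydroxylases Plod1, Plod2 and Plod3, the collagen chaperone Serpinh1, and the procollagen processing genes Pcolce and Bmp1. They were taken by gene symbol, and all 9 were found among the 19703 genes of the deposited table. All 9 passed the filter on low counts. RNA-seq libraries came from left ear skin of mice painted with MC903 (calcipotriol), a vitamin D analogue that provokes itch and inflammation. The left ears received MC903 daily for 7 days and once more on day 8, when the mice were gavaged with 100 µl of vehicle (5 libraries) or of GSK1562590 (5 mg/kg, 5 libraries), which blocks the receptor of the peptide urotensin II. Per the labels, skin was taken on day 13. Every library came from a MC903-treated ear, so no level has an untreated baseline, and the sources used here do not give the strain, sex or age of the mice.

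Collagen chains are modified in the endoplasmic reticulum (ER) while they are made. Prolyl 4-hydroxylase, an enzyme of catalytic alpha subunits and the shared beta subunit P4hb, hydroxylates proline and so stabilizes the collagen helix. Lysyl hydroxylases modify lysine, which serves later as a site for sugars and cross-links. Serpinh1, also called HSP47, binds the folded helix and accompanies it out of the ER. Outside the cell Bmp1 cuts off the C-terminal propeptide of fibrillar procollagens, and Pcolce enhances that cut. In skin, fibroblasts make most fibrillar collagen.

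The promoters of the chaperone and of both main prolyl 4-hydroxylase subunits, which were lower in antagonist ears, are shown beside that of Plod1, which did not pass the test. Each line holds the 250 bases before the transcription start, 5′ to 3′ on the strand of the gene, from RefSeq (GRCm38.p6). They lie at chr7:99353240-99353489 on the minus strand for Serpinh1, chr10:59323046-59323295 on the plus strand for P4ha1, chr11:54100674-54100923 on the plus strand for P4ha2 and chr4:147936777-147937026 on the minus strand for Plod1. Capitals mark matches, on either strand, to any of 9 motifs searched by their letters.
Serpinh1: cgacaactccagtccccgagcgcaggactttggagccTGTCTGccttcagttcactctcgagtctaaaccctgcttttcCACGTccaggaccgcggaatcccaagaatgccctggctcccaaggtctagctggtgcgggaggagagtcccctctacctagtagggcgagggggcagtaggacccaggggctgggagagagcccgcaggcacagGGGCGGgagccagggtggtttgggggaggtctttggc
P4ha1: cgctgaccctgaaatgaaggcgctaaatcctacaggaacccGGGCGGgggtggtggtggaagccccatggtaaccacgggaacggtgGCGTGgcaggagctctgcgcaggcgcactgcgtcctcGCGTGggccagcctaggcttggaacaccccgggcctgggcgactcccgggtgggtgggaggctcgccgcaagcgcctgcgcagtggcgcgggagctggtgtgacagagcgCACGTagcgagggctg
P4ha2: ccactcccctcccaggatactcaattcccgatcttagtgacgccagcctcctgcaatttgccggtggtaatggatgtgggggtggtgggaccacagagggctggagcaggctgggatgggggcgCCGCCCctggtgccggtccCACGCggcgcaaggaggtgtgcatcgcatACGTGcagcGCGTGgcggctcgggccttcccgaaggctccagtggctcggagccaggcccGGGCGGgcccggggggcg
Plod1: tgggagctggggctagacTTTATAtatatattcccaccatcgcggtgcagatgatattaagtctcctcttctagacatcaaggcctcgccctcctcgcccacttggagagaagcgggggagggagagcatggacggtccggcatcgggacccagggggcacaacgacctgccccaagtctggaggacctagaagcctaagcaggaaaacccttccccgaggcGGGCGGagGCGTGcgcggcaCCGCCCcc
The motifs were the GC box GGGCGG, the hypoxia response cores ACGTG and GCGTG, the CCAAT box CCAAT, the TATA box TATAAA, the heat shock element core GAANNTTC, the SMAD element core CAGACA, the ER stress element (CCAAT and CCACG with any 9 bases between them) and the unfolded protein response core TGACGTG. The last holds the letters of ACGTG, and the ER stress element those of CCAAT. Promoters of 7 of the 9 members were in the RefSeq table, and those of Plod2 and Bmp1 are named only. A GC box was found in 6 of the 7 and in 32.7% of 32851 RefSeq promoters of the same length. ACGTG was found in 4 of the 7 (Plod3, Serpinh1, P4ha1 and P4ha2) and in 16.6% of all promoters, and GCGTG in 5 of the 7 and in 28.2% of all. The CCAAT box matched in Plod3, the TATA box in Plod1 and the SMAD core in Serpinh1, against 33.8%, 12.4% and 17.1% of all promoters. The other 3 motifs matched in 0 of the 7, against 6.69%, 0.113% and 1.65% of all in the order given. The P4ha1 and P4ha2 windows held 69.6% and 70.0% G and C, against a median of 52.4% over all promoters. GC-rich windows can hold more matches to GC-rich letters, and a match is a description of the letters.

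Library depth was even, from 20183024 to 20606007 expected counts per library. Keratinocyte genes marked the samples as skin: the summed level of 6 markers was 19854 to 33812 CPM (counts scaled to library size, with TMM factors) in vehicle and 21060 to 29174 CPM in antagonist libraries, and 0 of the 6 passed the test. The summed level of 7 fibroblast markers was 4025 to 5066 CPM in vehicle and 2496 to 3064 CPM in antagonist libraries, and 4 of the 7 fell (Dpt, Dcn, Lum and Thy1), while Pdgfra, a growth factor receptor of fibroblasts, stood at a log2 fold change of −0.28 ± 0.15 (SE) and Pdgfrb at 0.06 ± 0.09. Of 11 tested cartilage markers 9 fell and their summed level was 499 to 900 CPM in vehicle and 239 to 515 CPM in antagonist libraries. Of 6 leukocyte markers 5 fell, with sums of 450.0 to 767 and 347 to 450.1 CPM, and of 4 smooth muscle markers 3 fell, with sums of 79.9 to 112 and 60.0 to 80.1 CPM. Skeletal muscle and adipocyte markers had 0 of 6 and 0 of 4 past the threshold, and of 4 endothelial markers Cdh5 fell. Over all tested genes 17.4% fell and 16.7% rose by the same test. None of these markers was at 0 counts in all libraries. In bulk skin, fewer cells of a type and less RNA per cell cannot be told apart. The part of cell content in the results below was not tested beyond cartilage, leukocyte and skeletal muscle marker scores added to the model. No fibroblast or smooth muscle score was added, so the part of their content was not tested.

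Of the 9 collagen processing genes, 8 fell in antagonist ears by edgeR's quasi-likelihood test with an adjusted p under 0.05, 0 rose, and Plod1 did not pass. Among all 15174 tested genes 34.1% passed the same test, 17.4% lower and 16.7% higher. The median log2 fold change of the 9 was −0.63, against −0.00018 over all tested genes. Among the 8, P4ha3 fell by 68.0%, the most, and Bmp1 fell by 17.8%, the least. Serpinh1, Pcolce, P4ha1, P4ha3 and Plod3 were lower in every antagonist library than in every vehicle library, which was so for 10.8% of all tested genes. In the authors' deposited table the same 8 genes had a log2 fold change below 0, from −1.64 for P4ha3 to −0.28 for Bmp1, with q-values of at most 0.00638, and Plod1 stood at 0.22 with a q-value of 0.178. The count of 8 lower members was unchanged when any 1 library was left out. It became 0, as did the count over all genes, when the cartilage or the leukocyte marker score was added to the model. Of the variance of these scores 69.9% and 89.6% lay between the groups, so these fits can hardly separate a score from the treatment. With those scores P4ha3 stood at −1.53 and −1.86 on the log2 scale, against −1.65 without them (unadjusted p = 0.0526 and 0.10 by edgeR). P4ha1 stood at −0.30 and −0.056 against −0.37, Plod2 at −0.16 and −0.48 against −0.63, and Pcolce at −0.59 and −0.54 against −1.25. P4ha2 stood at −0.36 and −1.41 against −0.66, and Serpinh1 at −0.80 and −1.02 against −1.02. Plod3 stood at −0.38 and −0.31 against −0.36, and Bmp1 at −0.33 and 0.033 against −0.28.

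**Figure D1:**
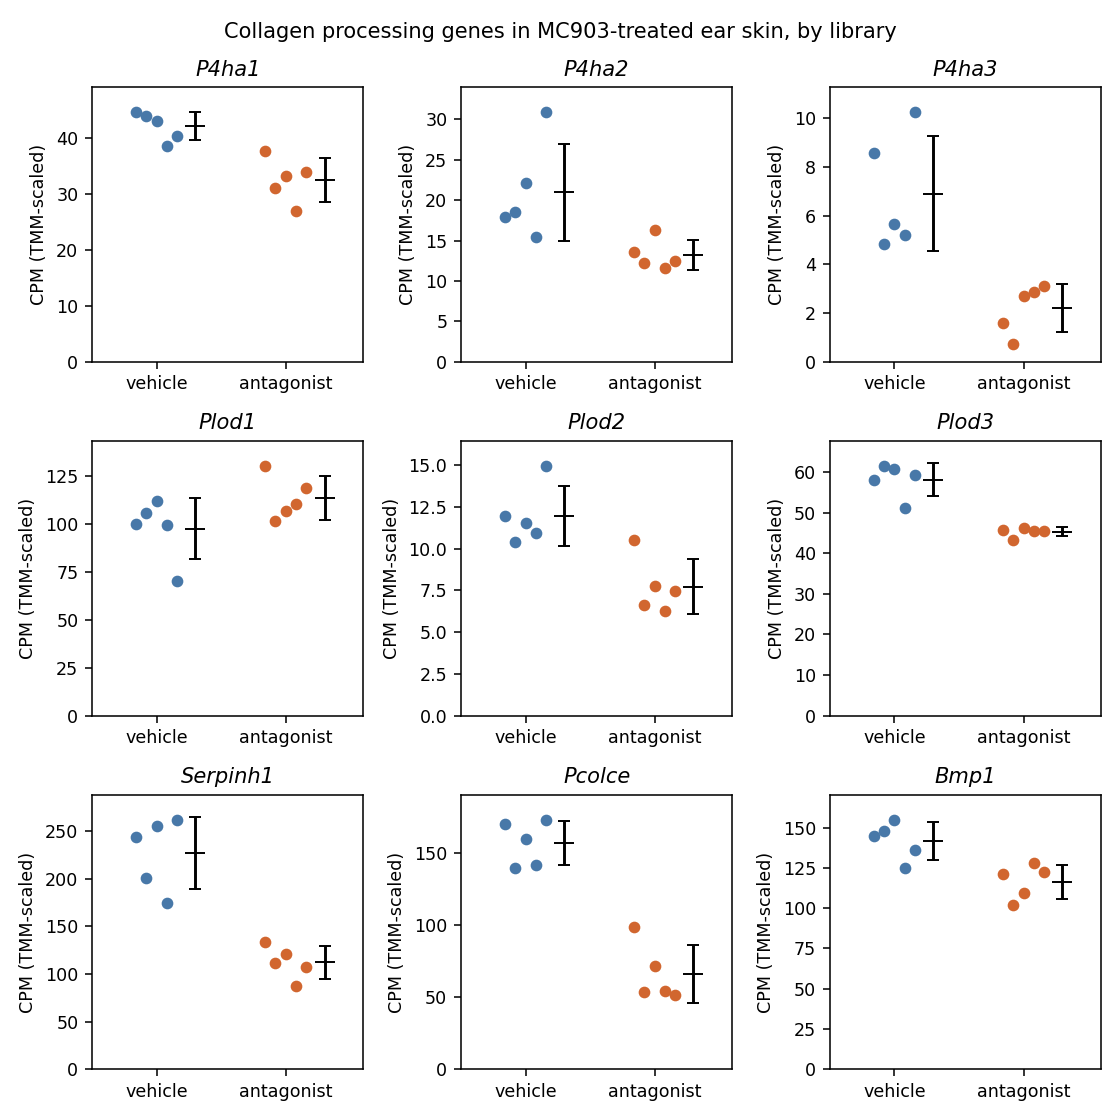
TMM-scaled CPM of the 9 collagen processing genes in each library, 1 panel per gene with the axis from 0. Points are libraries (5 vehicle, 5 antagonist) and the black marks beside them are the mean ± SD. Serpinh1, Pcolce, P4ha1, P4ha3 and Plod3 show no overlap between groups, and vehicle replicate 12 is the lowest library for Plod1.

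Prolyl 4-hydroxylase has 3 alternative alpha subunits, and all 3 genes fell. P4ha1, the widely expressed subunit (chromosome 10, 59323296 to 59373304), had 44.6, 43.8, 43.0, 38.6 and 40.3 CPM in vehicle replicates 3, 9, 10, 11 and 12, and 37.6, 31.0, 33.2, 26.9 and 33.9 CPM in antagonist replicates 4, 6, 7, 8 and 10. The highest antagonist library, replicate 4, lay just under the lowest vehicle library. Its mean went from 42.1 ± 2.54 to 32.5 ± 3.95 CPM (SD, n = 5), and it fell by 0.37 ± 0.09 on the log2 scale (adjusted p = 0.00831). P4ha2, the second main subunit (chromosome 11, 54100924 to 54131668), had 17.9, 18.5, 22.1, 15.5 and 30.9 CPM in the vehicle libraries and 13.6, 12.2, 16.3, 11.6 and 12.5 CPM in the antagonist libraries, in the same order. The groups overlapped, since antagonist replicate 7 lay above vehicle replicate 11, and vehicle replicate 12 was the highest. The fall was 0.66 ± 0.17 on the log2 scale (adjusted p = 0.0144), and 0.47 without that replicate.

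P4ha3, the remaining alpha subunit (chromosome 7, 100285489 to 100319701), was the lowest of the 9 and had the largest fold change. It had 8.59, 4.85, 5.65, 5.23 and 10.3 CPM in the vehicle libraries and 1.59, 0.749, 2.72, 2.87 and 3.10 CPM in the antagonist libraries. Vehicle replicates 3 and 12 were high and antagonist replicate 6 was low, with no overlap between groups. These values rest on 102 to 207 expected counts per vehicle library and 15 to 63 per antagonist library. In antagonist ears its level was 3.13 times lower, at a log2 fold change of −1.65 ± 0.34 (adjusted p = 0.0052). Its counts were fractional in 9 of 10 libraries, as arises when reads are divided among genes or transcripts.

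Of the lysyl hydroxylases Plod2 and Plod3 fell, and Plod1 did not pass the test. Plod1 (chromosome 4, 147909753 to 147936776), which hydroxylates lysine in the helical part of collagen, had 100.1, 106, 112, 99.7 and 70.5 CPM in vehicle and 130.4, 102, 107, 110.4 and 119 CPM in antagonist libraries. Its groups overlapped, and vehicle replicate 12 lay far under the other vehicle libraries. Its log2 fold change of 0.22 ± 0.12 did not pass (adjusted p = 0.161) and was 0.13 to 0.28 when 1 library was left out. Plod2 (chromosome 9, 92539636 to 92613539), which hydroxylates lysine in the telopeptides and so sets the type of cross-link, had 11.96, 10.4, 11.6, 10.9 and 15.0 CPM in vehicle and 10.5, 6.64, 7.75, 6.29 and 7.44 CPM in antagonist libraries. Antagonist replicate 4 reached the range of the vehicle libraries and the other four lay below it. The fall was 0.63 ± 0.15 on the log2 scale (adjusted p = 0.00948). Plod2 shared 346 exonic bases with the opposite-strand entry Gm38391 in GENCODE. Plod3 (chromosome 5, 136987019 to 136996646), which also transfers sugars to hydroxylysine, had 58.0, 61.5, 60.8, 51.2 and 59.3 CPM in vehicle and 45.8, 43.3, 46.3, 45.6 and 45.5 CPM in antagonist libraries. The antagonist libraries were close together and all under the vehicle libraries. Plod3 fell by 0.36 ± 0.06 (log2, SE, adjusted p = 0.00188), shared 529 exonic bases with the opposite-strand gene Znhit1 in GENCODE, and had fractional counts in 10 of 10 libraries.

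Serpinh1 (chromosome 7, 99345375 to 99353239) had 243, 201, 255, 174 and 262 CPM in vehicle and 134, 112, 121, 87.0 and 107 CPM in antagonist libraries. The groups were apart, with vehicle replicate 11 the nearest to the antagonist range. Antagonist ears held 0.494 times the vehicle level (log2 fold change −1.02 ± 0.14, adjusted p = 0.00101). Pcolce (chromosome 5, 137605105 to 137611522) had 170.1, 139.7, 160.0, 142 and 173 CPM in vehicle and 98.9, 53.4, 71.6, 54.7 and 51.9 CPM in antagonist libraries. Antagonist replicate 4 was the highest of its group for Pcolce, as for Serpinh1, P4ha1 and Plod2, and no antagonist library reached the vehicle range. Pcolce fell by 1.25 ± 0.17 on the log2 scale, to a level 2.38 times lower (adjusted p = 0.00113). Its exons share 112 bases with Fbxo24 on the same strand and 112 with Gm36266 on the opposite strand.

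Bmp1 (chromosome 14, 70474258 to 70520714), the procollagen C-proteinase, had the smallest fall. It had 145, 148, 155, 125 and 136 CPM in vehicle and 121, 102, 109, 128 and 122 CPM in antagonist libraries. Antagonist replicate 8 lay above vehicle replicate 11, so the groups overlapped. Bmp1 fell by 0.28 ± 0.08 on the log2 scale (adjusted p = 0.0179). Its sign and its side of the threshold held in 21 alternatives other than the cartilage and leukocyte scores. With those scores it stood at −0.33 and 0.033 (unadjusted p = 0.0442 and 0.89 by edgeR). The table names 11 transcripts for Bmp1, and its gene-level counts do not separate the forms of the proteinase.

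Levels between genes were compared per length, in the deposited TPM (transcript abundance corrected for length and depth). In vehicle ears the order of mean TPM was Pcolce (175 ± 12.3), Serpinh1 (172 ± 23.3), Bmp1 (64.5 ± 4.33), Plod1 (50.9 ± 8.46), Plod3 (30.1 ± 2.05), P4ha1 (17.6 ± 1.02), P4ha2 (15.6 ± 4.30), Plod2 (5.13 ± 0.751) and P4ha3 (4.96 ± 1.63; SD, n = 5). The ranges of Pcolce and Serpinh1 overlapped, as did those of P4ha1 and P4ha2 and those of Plod2 and P4ha3, while the other neighbours were apart. In antagonist ears Serpinh1 came first at 84.5 ± 15.2 TPM, then Pcolce at 73.7 ± 25.3, Plod1 at 58.9 ± 8.77 and Bmp1 at 52.9 ± 6.70, and the ranges of each of these neighbours overlapped. Plod3 (23.2 ± 1.40), P4ha1 (13.6 ± 2.10), P4ha2 (9.79 ± 1.23), Plod2 (3.28 ± 0.860) and P4ha3 (1.57 ± 0.700) followed, with overlap between P4ha1 and P4ha2.

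The makeup of both enzyme families was then compared within libraries. Ratios of deposited TPM do not depend on library scaling, and 8 of them were tested by two-sided exact permutation of the group labels, for which the smallest p is 0.00794, with Benjamini-Hochberg adjustment over the 8. The ratios were chosen with earlier results of these data known, and the adjustment does not cover that choice. Of the summed TPM of the alpha subunits P4ha3 held 12.8% ± 2.92 in vehicle ears and 6.31% ± 2.97 with the antagonist (SD, n = 5), and its ratio to P4ha1 was lower by 1.39 on the log2 scale, that is 0.383 times as high (exact p = 0.00794, adjusted 0.0159). The ratio of P4ha2 to P4ha1 had a log2 difference of −0.26 (exact p = 0.222, adjusted 0.222), and −0.10 without vehicle replicate 12. P4ha1 against its partner P4hb had a log2 difference of −0.24 (exact p = 0.0238, adjusted 0.0381), a call that was lost without any one of 9 of the 10 libraries.

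Among the lysyl hydroxylases, Plod1 supplied 58.8% ± 5.18 of the summed TPM in vehicle and 68.8% ± 1.42 in antagonist libraries. Plod3 supplied 35.1% ± 3.73 and 27.4% ± 1.79, and Plod2 6.08% ± 1.57 and 3.80% ± 0.522 (SD, n = 5). The ratio of Plod2 to Plod1 was 0.101 in vehicle and 0.0548 in antagonist libraries, a log2 difference of −0.89, and that of Plod3 to Plod1 was 0.597 and 0.397, a log2 difference of −0.59 (exact p = 0.00794 and adjusted 0.0159 for each). Neither ratio overlapped between groups, and without vehicle replicate 12 the differences were −0.69 and −0.47 with an adjusted exact p of 0.0317 for each.

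**Figure D2:**
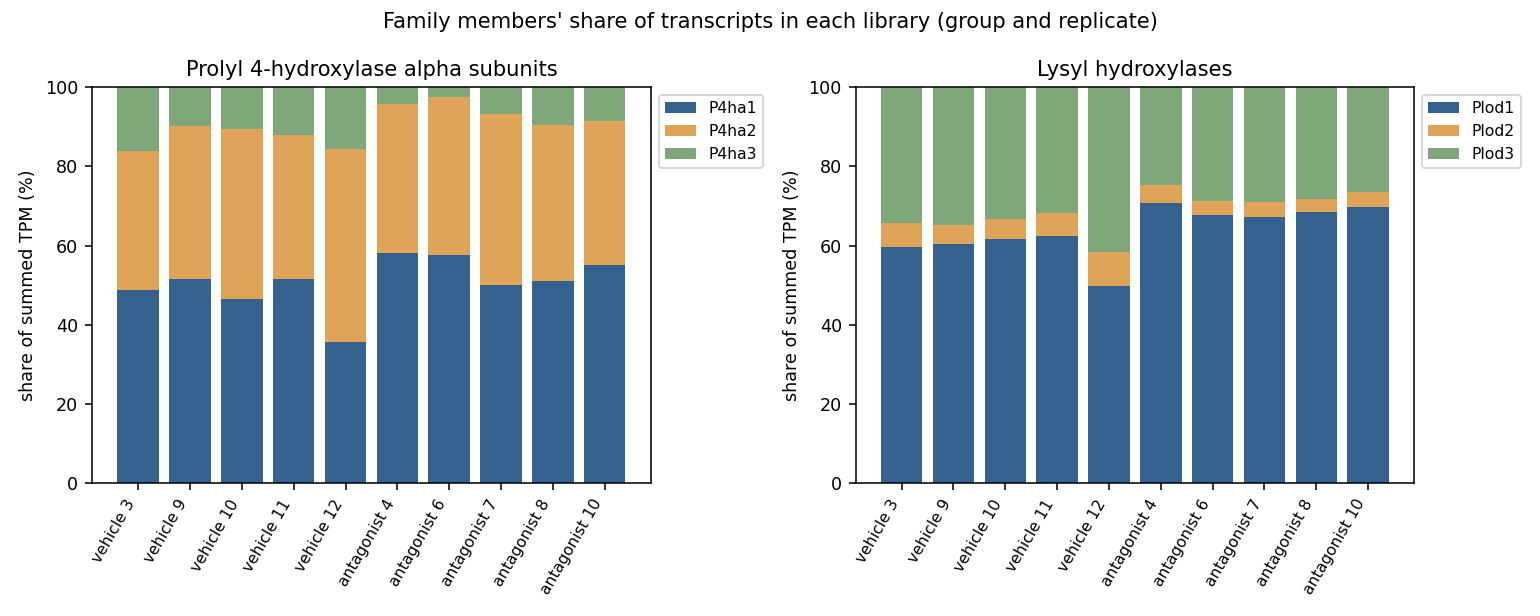
Share of the summed TPM (percent, bars from 0 to 100) held by each prolyl 4-hydroxylase alpha subunit (left) and each lysyl hydroxylase (right), 1 bar per library named by group and replicate. The P4ha3 share is 2.38% to 9.51% in antagonist and 9.76% to 16.1% in vehicle libraries, and the Plod1 share is 67.3% to 70.7% in antagonist and 49.7% to 62.5% in vehicle libraries.

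The proteins of Bmp1 and Pcolce act outside the cell, but only their transcripts were measured. The TPM ratio of Bmp1 to Pcolce was 0.368 in vehicle and 0.741 in antagonist libraries. This was a log2 difference of 1.01 with no overlap (exact p = 0.00794, adjusted 0.0159). The chaperone was also set against its main client. Serpinh1 stood at 0.213 of the Col1a1 TPM in vehicle and 0.403 in antagonist libraries, a log2 difference of 0.92 (exact p = 0.0397, adjusted 0.0529). Pcolce stood at 0.218 and 0.342 of Col1a1, a log2 difference of 0.65 (exact p = 0.0476, adjusted 0.0544). Neither of these ratios to Col1a1 passed the threshold with all libraries, and in each the ranges overlapped. Each passed without vehicle replicate 9 (adjusted 0.0423 for both) or antagonist replicate 8 (adjusted 0.0423 and 0.0254, exact permutation test).

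**Figure D3:**
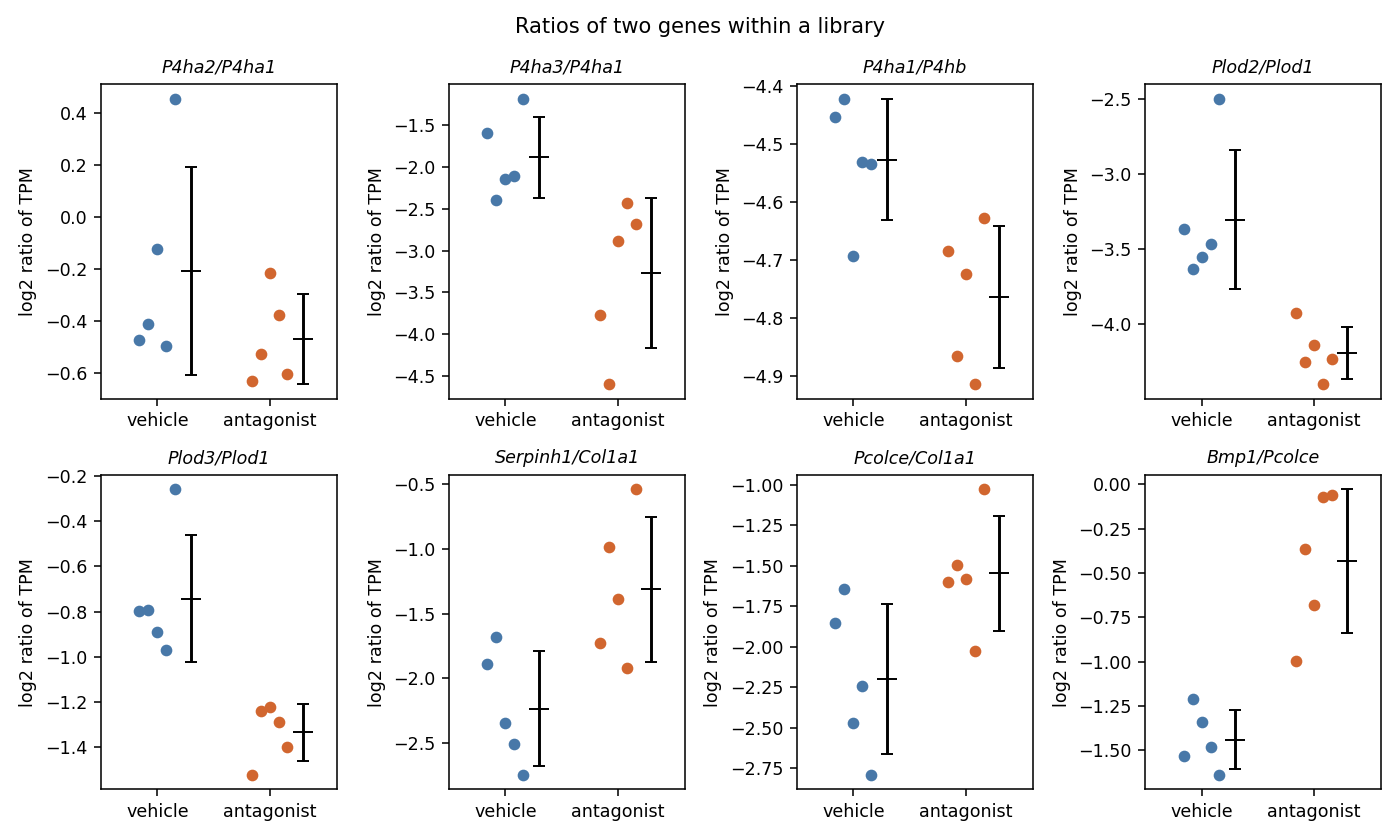
Log2 ratio of the TPM of 2 genes within each library, for the 8 ratios tested. Points are libraries and the black marks are the mean ± SD of 5. The ratios of P4ha3, Plod2 and Plod3 to P4ha1 or Plod1, and of Bmp1 to Pcolce, show no overlap between groups. For P4ha3 to P4ha1 the gap is narrow, with vehicle replicate 9 at −2.40 and antagonist replicate 8 at −2.43. Those of P4ha2 to P4ha1, P4ha1 to P4hb, Serpinh1 to Col1a1 and Pcolce to Col1a1 overlap.

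Other genes of collagen biosynthesis were read from the same fit. Over all tested genes 17.4% fell and 16.7% rose, and each count of genes in these lists stands beside those shares. Of 7 partners and prolyl 3-hydroxylases, 4 fell and 1 rose. P3h1, which hydroxylates proline at its 3-position, fell by 0.72 ± 0.11 on the log2 scale, P3h3 by 0.64 ± 0.11, Crtap, the partner of P3h1, by 0.51 ± 0.09 and Ppib, a proline isomerase of the same complex, by 0.29 ± 0.06. P3h4, a non-catalytic relative, rose by 0.25 ± 0.09 with an adjusted p of 0.0494, which missed the threshold in log2 TPM (adjusted p = 0.0871 by limma). It also missed it with no filter on low counts (adjusted p = 0.0532 by edgeR) and without vehicle replicates 3, 9 or 11 or antagonist replicates 6 or 10 (adjusted p of 0.0893 to 0.11 by edgeR). P4hb averaged 685 ± 58.0 CPM in vehicle ears and 623 ± 44.1 CPM with the antagonist (log2 fold change −0.14 ± 0.08, adjusted p = 0.183).

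Both collagen galactosyltransferases, which add sugar to hydroxylysine, fell: Colgalt1 from 103 ± 3.50 to 81.5 ± 2.89 CPM and Colgalt2 from 4.73 ± 0.826 to 2.70 ± 0.477 CPM (SD, n = 5). Of 3 other ER proteins, Fkbp14 and Fkbp10, proline isomerases, fell by 1.14 ± 0.12 and 0.48 ± 0.09 (log2, SE), and Tmem38b, an ER potassium channel, stood at 0.25 ± 0.09 (adjusted p = 0.065). Of 8 genes of export from the ER 4 fell and 1 rose. The coat components Sec24d, Sec23a and Sec13 fell by 0.51 ± 0.09, 0.45 ± 0.09 and 0.38 ± 0.06, and Creb3l1, a transcription factor that drives collagen secretion genes, by 0.81 ± 0.15. Mia2, a cargo receptor, rose by 0.17 ± 0.05, while its relative Mia3, also called TANGO1, stood at 0.12 ± 0.05 (adjusted p = 0.104).

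Of 5 tested procollagen proteinases and enhancers, Adamts3, a procollagen N-proteinase, fell by 0.72 ± 0.21 (adjusted p = 0.021), and 4 did not pass: the N-proteinases Adamts2 (−0.14 ± 0.08) and Adamts14 (−0.24 ± 0.23), the Bmp1 relative Tll1 (0.02 ± 0.10) and the enhancer Pcolce2 (−0.16 ± 0.12, log2, SE). Without antagonist replicate 4 Adamts14 stood at −0.49 and passed (adjusted p = 0.0496 by edgeR). Tll2, Mep1a and Mep1b had too few counts to be tested. All 9 fibrillar procollagen chains fell, with a median log2 fold change of −1.94, among them Col5a1 (−2.11 ± 0.26), Col3a1 (−2.15 ± 0.30), Col5a3 (−1.08 ± 0.14) and Col5a2 (−1.24 ± 0.17). The chain Col1a1, used in the ratios, stood at −1.94 ± 0.31. The median fold changes were −0.29 for the partners, −0.57 for the galactosyltransferases, −0.48 for the other ER proteins, −0.22 for export and −0.16 for the proteinases.

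**Figure D4:**
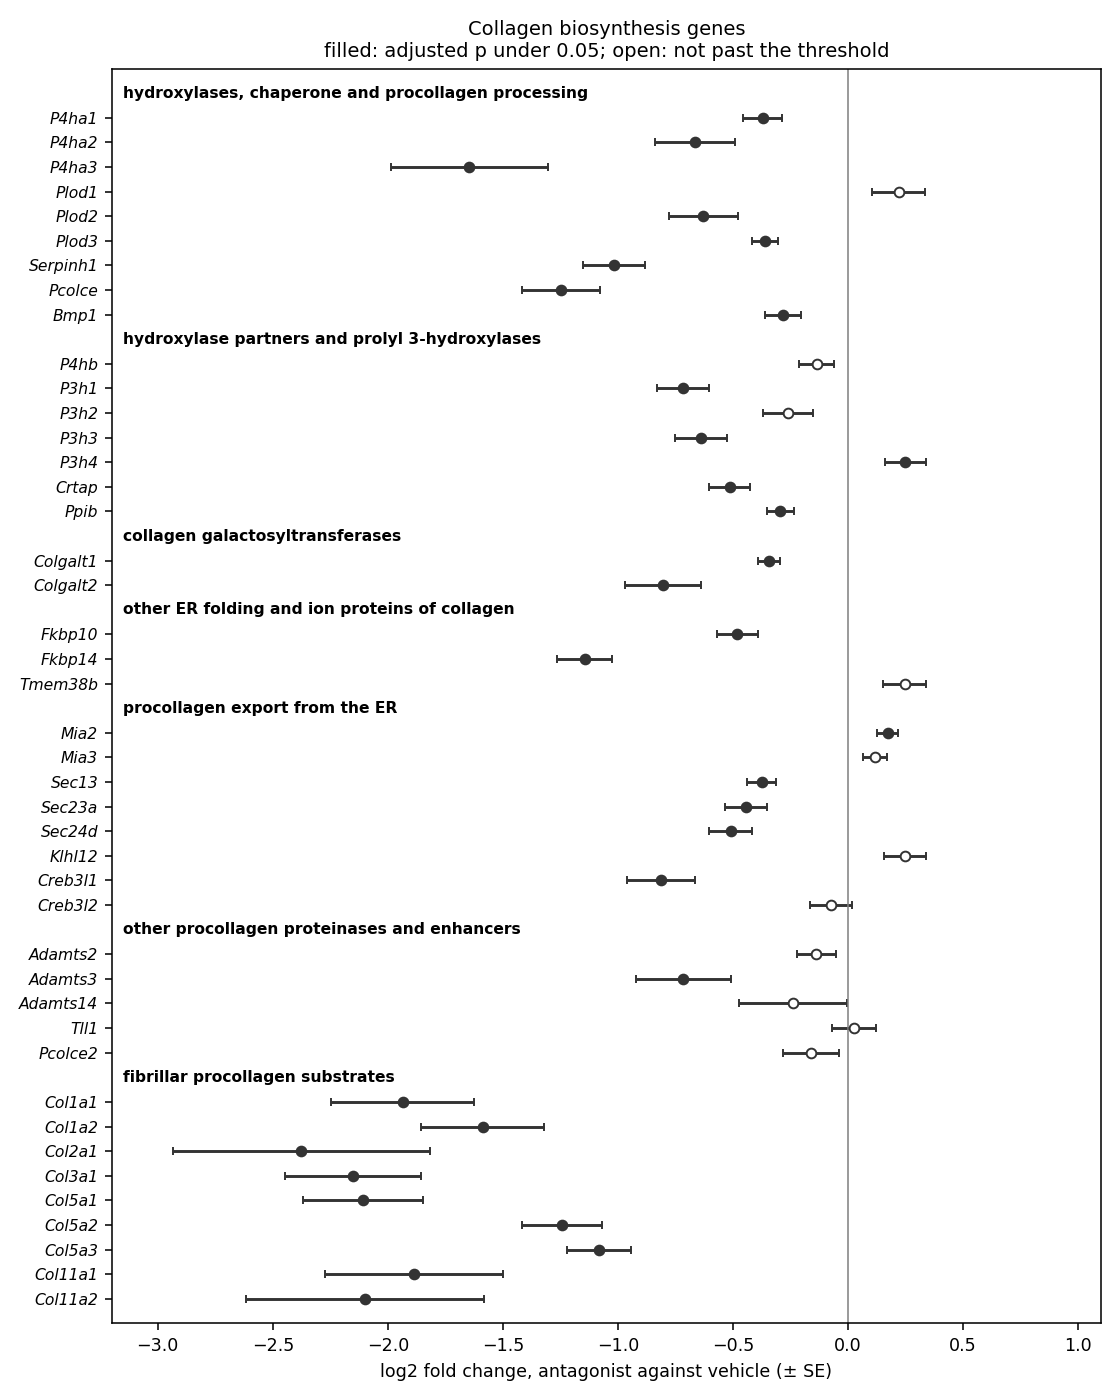
Log2 fold change (antagonist against vehicle, with SE bars) of the 9 collagen processing genes and of 6 further groups of collagen biosynthesis genes. Filled points have an adjusted p under 0.05 and open points do not. The fibrillar procollagen chains lie between −2.38 and −1.08, further from 0 than most of the enzymes.

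Prolyl hydroxylases that act on other substrates served as a comparison. Of 4 such genes Egln2 rose by 0.19 ± 0.06 (log2, SE, adjusted p = 0.0302) and 0 fell. Over all tested genes 16.7% rose and 17.4% fell. Egln1 stood at 0.14 ± 0.10, Egln3 at 0.30 ± 0.18 and the transmembrane P4htm at 0.21 ± 0.16. The call of Egln2, an oxygen-sensing enzyme, was lost without vehicle replicates 3 or 9 or antagonist replicates 6 or 8 (adjusted p of 0.0518 to 0.0705 by edgeR), and with the skeletal muscle marker score in the model (adjusted p = 0.0523 by edgeR).

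Of 10 hypoxia-responsive genes, 3 rose and 1 fell, against 16.7% and 17.4% of all tested genes. Bnip3, a mitophagy gene, rose from 85.9 ± 6.87 to 237 ± 100.2 CPM and the peptide Adm from 9.86 ± 1.85 to 17.1 ± 2.12 CPM. Ndrg1 rose by 0.32 ± 0.10 (log2, SE), while the lactate dehydrogenase Ldha fell by 0.29 ± 0.07. The rise of Ndrg1 was lost without vehicle replicates 10 or 11 or antagonist replicates 6 or 8 (adjusted p of 0.051 to 0.062 by edgeR). Of 9 general ER chaperones and stress genes 6 fell and 1 rose, against 17.4% and 16.7% of all tested genes. Pdia6, Pdia3 and Pdia4, disulfide isomerases, fell by 0.63 ± 0.11, 0.38 ± 0.06 and 0.63 ± 0.12, and the chaperone Hsp90b1 by 0.45 ± 0.10. The fall of Calr, a lectin chaperone counted among the 6, was lost without any one of 7 libraries (vehicle replicates 3, 9 or 10 or antagonist replicates 6, 7, 8 or 10, adjusted p of 0.0624 to 0.099 by edgeR). Ddit3, a stress transcription factor, rose from 15.0 ± 0.473 to 23.3 ± 3.24 CPM (SD, n = 5).

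Genes whose levels followed the members from library to library were sought among all tested genes, by Pearson correlation of log2 CPM centred within each group over the 10 libraries. These values describe the libraries, share their depth and carry no p, and among so many genes high values arise readily. Serpinh1 was followed most closely by Celf4 (r = 0.956), Nptn (0.949) and Kdelr2 (0.947). Pcolce was followed by Armcx1 and Fcrls (0.975 for each) and Pth1r (0.959), and P4ha1 by Dysf (0.967), Nck1 (0.956) and Fndc4 (0.950). For P4ha2 the nearest were Gja4 (0.926), Fgfbp1 (0.915) and Tppp3 (0.904), and for P4ha3 Gadl1 (0.967), Stil (0.948) and Sox15 (0.936). Plod1 was nearest to Cpxm1 and Ptprj (0.951 for each) and Klhl33 (0.946), Plod2 to Bace1 and Kctd17 (0.973 for each) and Gask1b (0.956), Plod3 to Trmt10c (0.909), Timm9 (0.901) and Gpr4 (0.891), and Bmp1 to Parp16 (0.967), Pi15 (0.921) and Zfp457 (0.899). Of the fibrillar collagens none was among these genes. Only the nearest genes of each member were listed, so this absence cannot show how closely the collagens followed the members.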

How the data were processed

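The 10 libraries were made from the left ears of MC903-painted mice. Per the labels' protocols, mRNA was selected with oligo(dT) beads and no step marks the strand. Per the submitters' processing notes HISAT was used, and the sources used here name no counting tool or annotation. The authors deposited, per the file headers, estimated counts, TPM and FPKM per library (FPKM not used here), group means, and a DESeq2 comparison with log2 fold changes, p-values and q-values. Every per-library column was matched by sample title, and the group means and the comparison by column name. One gene of the table is not analysed here. Of 19645 genes matched by NCBI identifier to RefSeq on GRCm38.p6, 19544 overlapped it, so positions are read as GRCm38.

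Estimated counts were rounded, filtered with filterByExpr (15174 genes left), scaled with TMM and tested with edgeR 4.0.16 in R 4.3.3 (quasi-likelihood, a model of group alone), adjusted by Benjamini-Hochberg over all tested genes. The SE of a log2 fold change was derived from it and its F statistic. The code was tested on simulated data. The ratios were tested with scipy 1.17.1. No pair of libraries agreed within sampling noise (the smallest squared difference was 21.4 times that noise). The labels do not say that each library is a separate mouse, so the p-values reflect the spread of these samples, which may be technical. The labels give no batch. Members, lists and ratios were chosen with earlier results of these data known. Named genes are the members, the 4 with the smallest p of each list and any called the other way, the genes of the ratios, and the 3 most correlated genes per member. Other list members are named for completeness, after their values were seen. Alternatives were other scaling and filters, DESeq2 1.42.0, limma 3.58.1 on counts (voom) and on TPM, marker scores as covariates and each library left out.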

Additional observations from a re-analysis of the deposited data

Results flagged for a closer look

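In 34 sets of 5 libraries (9 genes in CPM and 8 ratios, in each group), 3 held a library far from the other four of its group by Dixon's ratio, a test that flags about 1 group in 20 by chance. Plod3 in antagonist replicate 6 had 43.3 CPM, the lowest of a closely spaced group. The log2 ratio of Plod2 to Plod1 in vehicle replicate 12 was −2.50, and that of Plod3 to Plod1 in the same library was −0.26, each the highest of its group. These ratios share the denominator Plod1, which had 70.5 CPM in that library, so they are not separate events.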

How the results depend on the processing

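No paired analysis was possible because the groups share a single replicate number. Over 21 alternatives other than the cartilage and leukocyte scores, all 9 members kept their sign and their side of the threshold in 189 of 189 comparisons. The cartilage score (69.9% of its variance lay between groups) and the leukocyte score (89.6%) each left 0 of all tested genes called, 0 members called and 0 related genes called lower or higher, with 1791 and 735 genes at an unadjusted p under 0.05. With the cartilage score Plod3, Serpinh1, Pcolce and Bmp1 kept an unadjusted p under 0.05, with log2 fold changes of −0.38, −0.80, −0.59 and −0.33. With the leukocyte score P4ha2 (−1.41), Serpinh1 (−1.02) and Plod1 (0.99) had an unadjusted p under 0.05, and Bmp1 turned to 0.033 (unadjusted p = 0.89 by edgeR).

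Leaving out 1 library gave 4 to 8 related genes called higher, with 4 without antagonist replicate 6, against 7. Across these, the log2 difference was −0.28 to −0.20 for P4ha1 to P4hb, 0.73 to 1.07 for Serpinh1 to Col1a1 and 0.50 to 0.79 for Pcolce to Col1a1, and the smallest exact p of 4 against 5 was 0.0159.

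Signs of related genes also turned. With the leukocyte score these were P3h4 (−0.21), Adamts2 (0.19), Adamts14 (0.69), Hspa5 (0.31), Egln3 (−0.64), Ndrg1 (−0.088), Vegfa (−0.84), Creb3l2 (0.15), Egln1 (−0.31), Calr (0.074), Egln2 (−0.031), P4htm (−0.13) and Klhl12 (−0.089). With the cartilage score they were Adamts2 (0.12), Adamts14 (0.59), Col11a2 (0.20), Pcolce2 (0.23), Vegfa (−0.23), Col2a1 (0.18), Ankrd37 (0.11), Xbp1 (−0.15) and Slc2a1 (0.048). Col2a1 and Col11a2 are themselves markers in the cartilage score. Their turn therefore cannot be read, because each was adjusted for a score that contains it. With 1 library left out the sign turned for Tll1 (−0.015 to 0.067), Creb3l2 (−0.13 to 0.0041) and Slc2a1 (−0.11 to 0.060), none of which passed the test. Related genes outside the threshold that passed in at least 1 alternative were P3h2, Tmem38b, Klhl12, Adamts14, Hspa5, Pgk1, Ankrd37 and Car9. The causes were not tested. Depth limits P4ha3 most, with 15 counts in its lowest library.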
